A study of Homo sapiens with 6 samples.

Results

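The genes described here encode the complexes that palbociclib binds and their dedicated inhibitors: the D cyclins CCND1, CCND2 and CCND3, the kinases CDK4 and CDK6, and the INK4 inhibitors CDKN2A, CDKN2B, CDKN2C and CDKN2D. They were chosen by name, for their place in the drug's target pathway, with earlier results of these data already known. All 9 were found among the 35430 genes of the deposited count table. RNA came from LNCaP, a human prostate cancer line grown from a lymph node metastasis. The 3 control libraries are labelled only as controls, and the other 3 came from cells kept in 0.5 µM palbociclib for 1 week. The sources used here do not give the culture time, vehicle or passage of the controls, and time in culture and drug cannot be told apart. All libraries come from a single cell line, and nothing says that replicates were separate cultures, so p-values may measure technical spread alone.

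D cyclins are unstable proteins made in response to growth signals. They bind CDK4 or CDK6, and the complex phosphorylates the retinoblastoma protein, which then releases E2F transcription factors and lets the cell enter S phase. INK4 proteins bind the kinases themselves and keep cyclin D off. Palbociclib occupies the ATP pocket of the same kinases, so that drug and INK4 proteins act on the same step.

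After 1 week of palbociclib all of the INK4 genes had less RNA, while cyclin D1, cyclin D3 and CDK4 had slightly more. CDKN2A fell most among the inhibitors, by 6.03-fold, and CDKN2C fell by 2.22-fold. CCND1 rose by 1.35-fold, CCND3 by 1.26-fold and CDK4 by 1.14-fold, whereas CDK6 fell by 1.85-fold and the barely expressed CCND2 by 5.94-fold, the last resting on 2 of the 3 controls. Fold changes and adjusted p-values come from edgeR's quasi-likelihood test on counts, with Benjamini-Hochberg adjustment over the 21218 genes tested, and a gene is called where adjusted p is under 0.05. All 9 genes passed the filter on low counts and were called, 3 higher and 6 lower. Across all genes tested, 38.6% were called, 20.1% higher and 18.5% lower. The median log2 fold change was -0.70 over the 9 genes and -0.03 over all genes. The control and palbociclib libraries did not overlap for any of the 9. Over all genes tested the groups were apart for 51.1%, 25.7% with palbociclib higher and 25.3% with it lower. A fall of over 2-fold was called for CCND2, CDKN2A and CDKN2C, and for 5.27% of all genes. These are bulk libraries, in which fewer cells expressing a gene and less of its RNA per cell cannot be told apart.

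**Figure D1:**
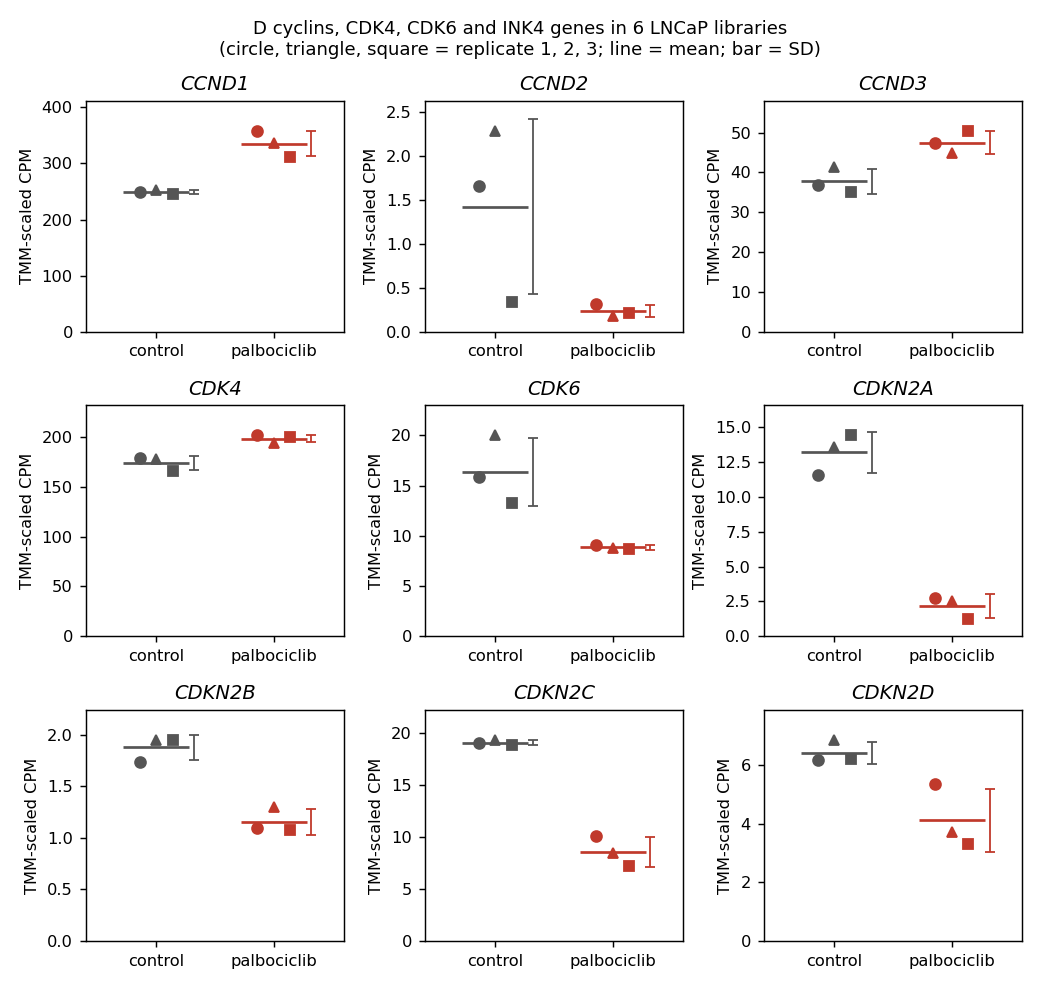
Level of each of the 9 genes in every library, as TMM-scaled CPM (vertical axes start at 0 and differ between panels); lines are means and bars are SD over 3 libraries. The 4 INK4 genes, CDK6 and CCND2 lie lower in every palbociclib library than in any control, and control library 3 (square) lies at 0.335 for CCND2 against 1.65 and 2.28 in the other controls.

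Among the D cyclins, CCND1 carried most of the RNA. CCND1 (ENSG00000110092, chromosome 11, 69641156 to 69654474; gene positions refer to hg38) encodes cyclin D1, the D cyclin of most epithelial cells. Its level was 248.8, 252.8 and 246.1 in control libraries 1, 2 and 3 and 357.8, 335.6 and 312.2 in palbociclib libraries 1, 2 and 3. These levels are in CPM, a library's counts for the gene relative to its total, after TMM scaling for library composition. Every treated library was above every control, and the treated libraries spread more widely than the controls. The log2 fold change was 0.43 ± 0.0505 (SE; edgeR adjusted p = 0.000208). Its exons share 497 of 4761 exon bases with LTO1, a gene on the opposite strand, which fell from 25.6 ± 1.51 to 19.5 ± 1.09 CPM (SD, n = 3 each; log2 fold change -0.39). Without a record of how strand was handled, reads of such shared bases cannot be told apart.

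CCND3 (ENSG00000112576, chromosome 6, 41934934 to 42050357), cyclin D3, is the D cyclin best known from lymphoid and differentiating cells. It stood at 36.8, 41.3 and 35.0 CPM in controls and at 47.3, 44.8 and 50.4 CPM with palbociclib, where the lowest treated library was close to the highest control. On the log2 scale this came to 0.33 ± 0.0735 (edgeR adjusted p = 0.00683). With limma on log2(FPKM + 1), which carries no TMM scaling, it was 0.20 and no longer called (adjusted p = 0.0683, over a range of 0.000243 to 0.0683 among alternatives).

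CCND2 (ENSG00000118971, chromosome 12, 4269771 to 4305350), cyclin D2, had 134, 136 and 21 counts in control libraries 1, 2 and 3 and 23, 12 and 12 with palbociclib. About 4 deposited counts correspond to a single fragment, so these were about 33.5, 34 and 5.25 fragments against 5.75, 3 and 3, of which the last 2 are at the floor of 12 counts. Control library 3 was thus close to the treated libraries, and the fall rested on control libraries 1 and 2. With all libraries the log2 fold change was -2.57 ± 0.645 (edgeR adjusted p = 0.0125). The call was lost without control library 2 (adjusted p = 0.0509) and likewise when palbociclib library 2 was left out (0.0523). Across all alternatives adjusted p ran from 0.000269 to 0.719, and the highest came with control library 3 as the only control, where the log2 fold change was -0.50. In that fit the spread comes from the treated libraries alone, the single control is assumed to vary like them, and the library was singled out for its values, so it describes how far the fall rests on the other controls and is no separate test.

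Of the kinases, CDK4 was the abundant one and CDK6 the one that fell. CDK4 (ENSG00000135446, chromosome 12, 57747727 to 57756013) was at 178.2, 177.7 and 166.0 CPM in controls and at 201.3, 193.9 and 199.3 CPM with palbociclib. The difference was small, 0.19 ± 0.0411 on the log2 scale (edgeR adjusted p = 0.00645). It depended on scaling: with library size alone it was 0.076 and not called (adjusted p = 0.186, range 0.000145 to 0.186). CDK4 shares 1369 of its 3094 exon bases with TSPAN31 on the opposite strand, which was at 12.2 ± 0.659 and 11.1 ± 2.15 CPM (log2 fold change -0.14, edgeR adjusted p = 0.508).

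CDK6 (ENSG00000105810, chromosome 7, 92604921 to 92833917), the sister kinase best known from blood cells, was at 15.8, 20.0 and 13.3 CPM in controls. With palbociclib its level was 9.13, 8.80 and 8.66 CPM, a tight group below all controls. This was a change of -0.89 ± 0.147 on the log2 scale (edgeR adjusted p = 0.00148). Control library 3 was again the lowest control, and with it as the only control the log2 fold change was -0.59.

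All of the INK4 genes fell, and they did so by different amounts. CDKN2A (ENSG00000147889, chromosome 9, 21967752 to 21994873) encodes both INK4A, an inhibitor of CDK4 and CDK6, and ARF, which stabilises p53 by binding MDM2. The proteins come from separate starts and share later exons in different reading frames, and the deposited gene count pools them. CDKN2A went from 11.6, 13.6 and 14.4 CPM in controls to 2.78, 2.52 and 1.21 CPM with palbociclib. The groups lay far apart, and palbociclib library 3 was the lowest. The log2 fold change was -2.59 ± 0.274 (edgeR adjusted p = 0.000108), and without palbociclib library 3 it was -2.31.

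CDKN2B (ENSG00000147883, chromosome 9, 22002903 to 22009305) lies next to CDKN2A and encodes INK4B, an inhibitor induced by TGF-beta. Its counts were 141, 116 and 122 in controls and 80, 84 and 61 with palbociclib, or 15.2 to 35.2 fragments per library. The log2 fold change was -0.70 ± 0.211 (edgeR adjusted p = 0.028). This call was near the threshold: it was lost in 5 of the 6 fits that left out 1 library, with adjusted p up to 0.0809 among these and up to 0.137 over all alternatives, the last with a single control. On the opposite strand CDKN2B-AS1 starts at the upstream end of CDKN2A and runs across CDKN2B. It is a long non-coding RNA also called ANRIL and known to recruit Polycomb proteins to this locus. Its level fell as well, from 2.21 ± 0.539 to 0.705 ± 0.144 CPM (-1.65 ± 0.282 on the log2 scale, edgeR adjusted p = 0.00173). Exons of the antisense gene share 593 of 3885 exon bases with CDKN2A in the annotation, of which 305 lie within the deposited spans of both genes. The part of reads from shared bases in either fall was not tested. MTAP, the methylthioadenosine phosphorylase gene on the other side of CDKN2A, was at 59.6 ± 3.49 and 62.5 ± 0.49 CPM (log2 fold change 0.07 ± 0.0514, edgeR adjusted p = 0.339).

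CDKN2C (ENSG00000123080, chromosome 1, 50960745 to 50974634) encodes INK4C, which restrains the cell cycle in many differentiating tissues. It was at 19.0, 19.3 and 18.9 CPM in controls, nearly the same in each, and at 10.1, 8.46 and 7.21 CPM with palbociclib. On the log2 scale the change was -1.15 ± 0.127 (edgeR adjusted p = 0.000138), and it was called in all 15 alternative fits. CDKN2D (ENSG00000129355, chromosome 19, 10566460 to 10569059) encodes INK4D, whose level normally varies over the cell cycle. It was at 6.18, 6.87 and 6.23 CPM in controls and at 5.35, 3.74 and 3.31 CPM with palbociclib. Palbociclib library 1 lay closer to the controls than the other treated libraries did. The log2 fold change was -0.63 ± 0.19 (edgeR adjusted p = 0.0276), and the call was lost in 5 of the 6 fits that left out 1 library, with adjusted p up to 0.101 among these and up to 0.21 over all alternatives, the last with a single control.

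**Figure D2:**
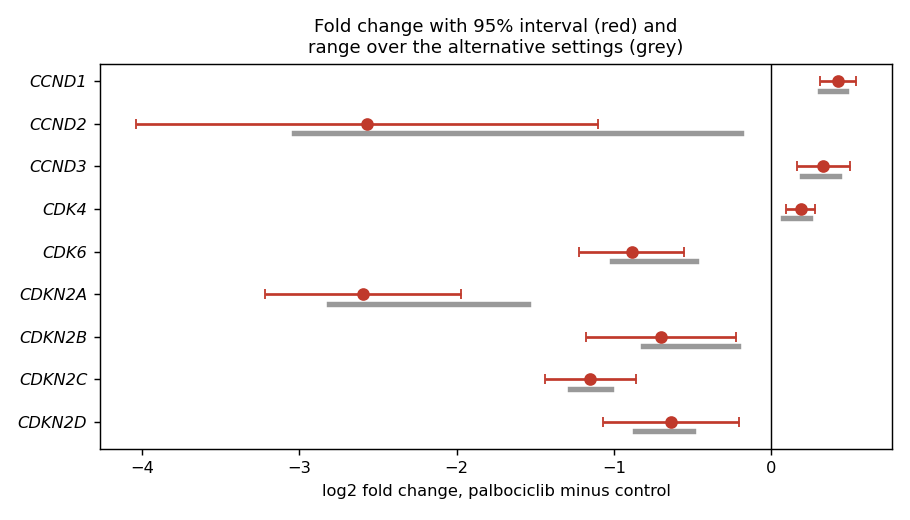
Log2 fold change of each gene, palbociclib minus control, from edgeR (red points; red bars are 95% intervals), with the range over the alternative settings below each (grey; limma on FPKM is on a compressed scale). No gene changed direction under any setting run, and CCND2 had the widest interval, from -4.04 to -1.10.

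Because the INK4 genes fell together, DNA before some of their start sites is shown, as RefSeq gives it on GRCh38.p14 (the same assembly as hg38). RefSeq windows were found for 7 of the 9 genes, the exceptions being CCND1 and CCND2, and gave 13 start sites. In each, the 250 bases before the start were searched on both strands for E2F-type letters (TTTCCCGC, TTTCGCGC, TTTGCCGC, TTTGGCGC or TTCCCGCC, of which the first and the last overlap) and for the GC box GGGCGG, to which SP1 is known to bind. Capitals mark these letters below, where bases inside an annotated exon of the gene are left out, except for CDKN2C.
CDKN2A, INK4A start, chr9:21974867-21975107, minus strand: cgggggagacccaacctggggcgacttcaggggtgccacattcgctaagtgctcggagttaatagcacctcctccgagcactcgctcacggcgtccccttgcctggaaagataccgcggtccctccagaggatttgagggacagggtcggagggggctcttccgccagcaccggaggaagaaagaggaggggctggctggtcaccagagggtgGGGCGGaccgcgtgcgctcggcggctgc
CDKN2A, ARF start, chr9:21995325-21995574, minus strand: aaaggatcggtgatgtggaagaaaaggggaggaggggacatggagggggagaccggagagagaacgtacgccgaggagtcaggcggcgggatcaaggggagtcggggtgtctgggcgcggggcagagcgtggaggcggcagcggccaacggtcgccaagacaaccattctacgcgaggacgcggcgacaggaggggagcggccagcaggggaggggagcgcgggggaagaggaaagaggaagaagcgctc
CDKN2B, chr9:22009306-22009555, minus strand: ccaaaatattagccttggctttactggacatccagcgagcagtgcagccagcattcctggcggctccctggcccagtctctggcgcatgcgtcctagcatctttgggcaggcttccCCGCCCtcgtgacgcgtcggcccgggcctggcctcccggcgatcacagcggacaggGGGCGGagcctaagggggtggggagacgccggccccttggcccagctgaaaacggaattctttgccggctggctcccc
CDKN2D, chr19:10569060-10569229, minus strand: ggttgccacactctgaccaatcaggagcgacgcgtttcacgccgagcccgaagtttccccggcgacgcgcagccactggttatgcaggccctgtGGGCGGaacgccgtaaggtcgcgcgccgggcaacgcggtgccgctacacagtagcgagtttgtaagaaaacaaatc
CDKN2C, around the E2F-type letters, chr1:50968564-50968591, plus strand: gagagcgggaGGCGGGAAtgagggcgcg
E2F-type letters were found only before a single CDKN2C start, 132 bases upstream, out of 13 windows searched. They occur in 4.76% of all 35116 RefSeq windows of this length. That window lies wholly inside an annotated CDKN2C exon that begins further upstream, so only the bases around the match are shown. The windows before the other CDKN2C starts, at 50960745 and 50970245, lie outside annotated exons and are not shown. Neither held E2F-type letters, and only the window before 50970245 held a GC box. A GC box was present in 9 of the 13 windows, against 42.6% of all windows. It stood before at least 1 start of all 7 genes, those that rose and those that fell alike, against 46.2% of the 27305 genes with a window. The 13 windows were 45.6% to 80% G or C, most of them above the median of 58% for all windows. The 7 genes also had more windows per gene than genes in general (35116 windows for 27305 genes). The part of base content and window number in these shares was not tested. The INK4A start of CDKN2A held 1 GC box and its ARF start none. For ARF, the window precedes a RefSeq start at 21995324, beyond the deposited CDKN2A span, which ends at 21994873. Annotated transcripts that begin inside that span, at 21994411 and 21994392, had no window, so the DNA before them was not searched.

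Per exon length, INK4 RNA was lower relative to kinase RNA in every treated library. The deposited FPKM values (fragments scaled to exon length and library depth) divide by exon length. That length, worked out from count and FPKM, was 4101 bases for CDKN2A and 1567 for CDKN2D. All annotated exons of each gene together hold 3885 and 1505 bases, and a single transcript can be shorter. A gene with much shorter transcripts would read too low, so levels and shares compare genes only roughly. In controls CDK4 (56.2 ± 2.45 FPKM; SD, n = 3) and CCND1 (52.3 ± 0.965) had the highest levels and overlapped in range. They were followed by CCND3 (6.53 ± 0.586) and CDKN2C (6.32 ± 0.104), which also overlapped, and by CDKN2D (4.26 ± 0.276) and CDKN2A (3.38 ± 0.368). CDK6 (1.34 ± 0.283), CDKN2B (0.463 ± 0.027) and CCND2 (0.177 ± 0.124) were last, and no other neighbours in this order overlapped. With palbociclib CCND1 stood first, at 65.2 ± 4.26 FPKM, above CDK4 at 59.3 ± 1.11 FPKM without overlap. CDKN2C (2.63 ± 0.438) and CDKN2D (2.54 ± 0.657) now overlapped, as did CDKN2A (0.502 ± 0.196) and CDKN2B (0.264 ± 0.028), while CDK6 stood at 0.669 ± 0.017.

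Summed INK4 RNA was 13.8, 14.99 and 14.5 FPKM in the controls and 7.26, 5.76 and 4.78 FPKM with palbociclib, 2.43-fold lower on average. Summed CDK4 and CDK6 RNA was 57.5 ± 2.68 FPKM in controls and 60.01 ± 1.12 FPKM with palbociclib, with overlapping ranges (exact permutation p = 0.3, two-sided, where 0.1 is the smallest possible). This difference of 2.48 FPKM depended on scaling and was 6.94 on TMM-scaled CPM per kilobase. Per 100 FPKM of the kinases there were 23.4, 25.3 and 26.6 FPKM of INK4 genes in controls and 11.9, 9.81 and 7.90 with palbociclib, a ratio within each library that no scaling between libraries can move. Summed D cyclin RNA per 100 FPKM of the kinases went the other way, from 99.9, 102.5 and 105.7 to 126.7, 123.5 and 114.2. Both ratios separated the groups completely, with an exact permutation p of 0.1, the smallest that 3 against 3 libraries allow, and 0.14 after Benjamini-Hochberg adjustment over 14 such measures. These are RNA ratios and say nothing of protein amounts.

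The make-up of each class is given as shares of its summed FPKM. CDKN2A supplied 21.5%, 23.3% and 25.3% of INK4 RNA in controls and 8.90%, 10.1% and 5.84% with palbociclib. CDKN2D went from 28.4% to 30.6% in controls up to 39.8% to 45.1%, and CDKN2C stayed the largest or nearly the largest, at 43.8% ± 1.57 and 44.6% ± 1.96. The CDK6 share of the kinases was 2.31% ± 0.404 and 1.12% ± 0.0279. For CDKN2A, CDKN2D and CDK6 the groups did not overlap (exact permutation p = 0.1 each, adjusted 0.14). CCND1 made up 88.7% ± 0.859 of D cyclin RNA in controls and 89.5% ± 1.09 with palbociclib, a difference within the spread of the libraries (exact permutation p = 0.3, adjusted 0.35). The CCND2 share was 0.296% ± 0.204 and 0.0365% ± 0.00771 without overlap (exact permutation p = 0.1, adjusted 0.14), with control library 3 at 0.0711%.

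**Figure D3:**
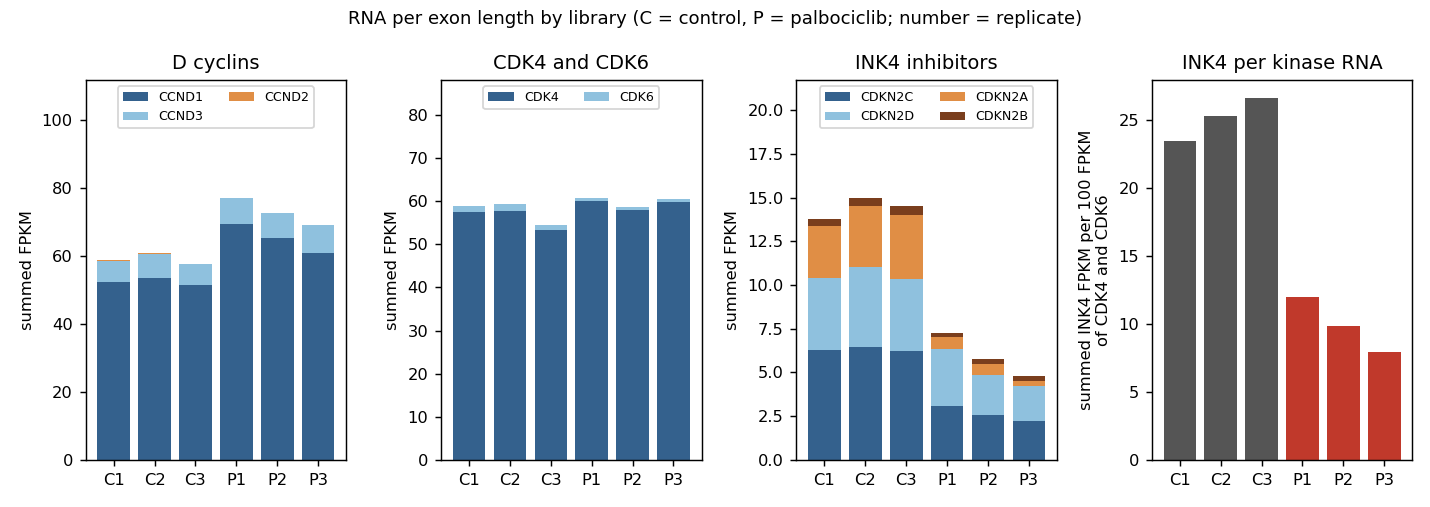
Stacked FPKM of the D cyclins, the kinases and the INK4 genes in each library, and INK4 FPKM per 100 FPKM of CDK4 and CDK6 (all axes start at 0). INK4 RNA per kinase RNA is 23.4 to 26.6 in the controls and 7.90 to 11.9 with palbociclib.

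Other genes of the pathway are given by lists, with the number called by edgeR over all genes. Of the pocket proteins, the substrates of the cyclin D kinases, RBL1 (p107), itself an E2F target, fell from 30.04 ± 0.167 to 17.7 ± 1.43 CPM, a change of -0.77 on the log2 scale (edgeR adjusted p = 8.42e-05). RB1 was at 44.2 and 44.5 CPM (0.01; 95% interval -0.14 to 0.16) and RBL2 at 111.6 and 116.8 CPM (0.07; -0.02 to 0.16), and neither was called. CIP/KIP inhibitors, which block CDK2 and also help cyclin D complexes assemble, split: CDKN1A rose from 190.7 ± 8.63 to 264.1 ± 7.68 CPM (0.47) and CDKN1B fell from 141.2 ± 4.62 to 74.9 ± 9.25 CPM (-0.91 ± 0.0821, edgeR adjusted p = 4.31e-05). CDKN1C was called lower at low level, from 1.76 ± 0.51 to 0.955 ± 0.0129 CPM (-0.88, edgeR adjusted p = 0.0306), and lost the call in 5 of the 6 fits that left out 1 library (adjusted p 0.0176 to 0.0995 over all alternatives).

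Cyclin E1, which drives CDK2 at the next step of G1, rose from 11.5 ± 1.69 to 20.4 ± 0.895 CPM (CCNE1, 0.83 ± 0.117, edgeR adjusted p = 0.00061). CDK2 (-0.09) and CCNE2 (0.07) did not pass. In the CDK-activating kinase, which phosphorylates the activation loop of CDK4, cyclin H rose (CCNH, 0.32), while CDK7 (0.15) and MNAT1 (-0.21) did not pass. All 3 chaperone genes that fold CDK4 rose: HSP90AA1 from 583.0 ± 4.99 to 1333 ± 18.9 CPM (1.19), HSP90AB1 (0.78) and the kinase adaptor CDC37 (0.49). Of 16 genes of cyclin D turnover 6 were higher and 3 lower (median -0.01), and with library size alone 6 were lower. SKP1 (0.61) and DDB1 (0.37), parts of ubiquitin ligases, rose, as did the small chaperone CRYAB from 0.921 to 4.70 CPM (2.34), and the ligase adaptor FBXW8 fell (-0.59). The other 7 did not pass, among them AMBRA1 (-0.05), the adaptor that directs D cyclins to degradation.

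Transcription factors known to act on the CCND1 promoter were called lower in 8 of 19 cases and higher in 3 (median -0.32). Over all genes tested 18.5% were called lower and 20.1% higher, against which the other list counts are also to be read. The list holds activators and repressors together. LEF1, the WNT pathway factor, fell from 10.7 ± 0.309 to 4.39 ± 0.3 CPM (-1.29), and SP1 (-0.51) and STAT5B (-0.43) fell too, whereas STAT3 rose from 131.5 ± 5.15 to 211.4 ± 1.77 CPM (0.68). With control library 3 as the only control, 3 of the 19 were called lower. Of 22 regulators of the INK4 genes 11 were lower and 1 higher (median -0.21). Repressors and activators are again mixed. The Polycomb methyltransferase EZH2, which silences CDKN2A and CDKN2B in many cell types, fell from 92.8 ± 0.95 to 28.3 ± 1.86 CPM (-1.71 ± 0.0557, edgeR adjusted p = 1.83e-07). JDP2 (-1.25), an AP-1 repressor, and KMT2A (-0.57), the methyltransferase that with menin activates CDKN2C, fell as well, while the menin gene MEN1 did not pass (0.01).

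Genes known to be switched on by E2F at the G1/S boundary, downstream of the cyclin D kinases, gave 13 called lower and 5 higher of 29 (median -0.04), beside 18.5% and 20.1% of all genes. Among the lower ones, those named for low adjusted p are PRIM1, the primase subunit (-1.23), RRM2, of ribonucleotide reductase (-0.65), the helicase subunit MCM7 (-0.56) and thymidylate synthase TYMS (-0.49). The 5 called higher were CCNE1, MCM3 (0.40), MCM4 (0.35), MCM5 (0.25) and MCM6 (0.30). These MCM genes encode subunits of the same helicase as MCM7, so its subunits did not fall together, and MCM2 (-0.01) did not pass. Exons of TYMS share 39.9% of their bases with ENOSF1 on the opposite strand, and those of CCNE2 37.0% with INTS8. Those of MCM2 share 23.6% with ENSG00000285600 on the opposite strand. Overlaps of the other genes named from these pathway lists were at most 18.3%.

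**Figure D4:**
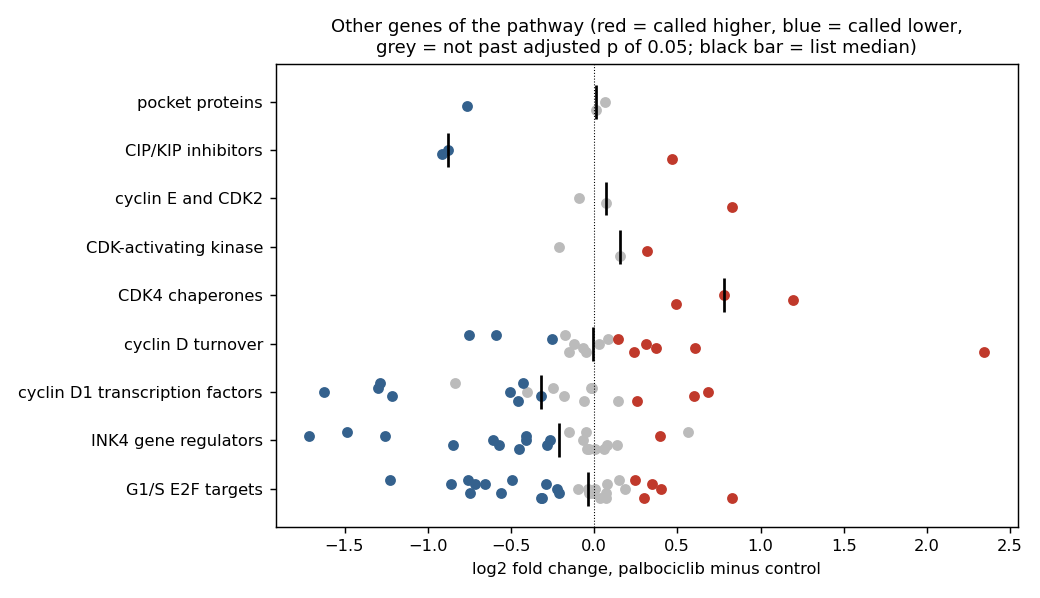
Log2 fold change, palbociclib minus control, of each tested gene in 9 lists around the cyclin D kinases (points; red called higher, blue called lower, grey not past the threshold; black bars are list medians). The 3 CDK4 chaperone genes are all to the right of 0, and 11 of 22 INK4 regulators are called to the left.

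Profiles over the 6 libraries were compared by the root mean square difference of centred log2 CPM among 10519 protein-coding genes at 5 CPM or more, which mostly reads the group difference. CCND2 was most like VIL1, the actin bundler villin (difference 0.158), and AHSG, the plasma protein fetuin-A (0.198). VIL1 was at 9.84, 14.1 and 2.30 CPM in controls and 1.10 to 1.72 CPM with palbociclib. It was picked for its likeness to CCND2 over these same libraries, so its low value in control library 3 is no separate observation. CDKN2A was most like AKAP5, a kinase anchor (0.271; log2 fold change -2.28), and GDF15, a stress hormone (0.273; -2.30), neither of them close. CDKN2C was nearest to RBCK1 (0.0536) and ANG (0.0592), CDKN2B to TMEM116 (0.0306) and CDR2 (0.0513), and CDKN2D to ZNF599 (0.0473) and NFKBIL1 (0.0624). CDK6 was nearest to FGFR1, a growth factor receptor (0.0817), and ARHGEF40 (0.0836). The nearest to CCND1 were ARRDC1 (0.0222) and ACTB, cytoplasmic actin (0.0251), to CCND3 ASL (0.0247) and MTFR1L (0.0279), and to CDK4 CHMP3 (0.0133) and ARHGAP1 (0.0141).

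Libraries held 57082715 to 78117945 estimated counts. Of 10 prostate luminal markers all were detected, including KLK3, and their summed level was 5880 to 5918 CPM in controls and 8958 to 9175 CPM with palbociclib. Of 6 immune markers 5 were tested, with a median log2 fold change of -1.33 and a summed level of 4.00 to 5.79 CPM in controls and 5.91 to 8.34 CPM with palbociclib. CD68 was the only one called higher (2.40 ± 0.428 to 6.12 ± 1.56 CPM), and it shares 81.6% of its exon bases with ENSG00000264772 on the same strand. PTPRC was called lower (1.19 ± 0.544 to 0.47 ± 0.111 CPM, edgeR adjusted p = 0.0267), and the other 3 did not pass. Of 6 fibroblast markers 4 were tested (29.2 to 30.1 against 31.2 to 34.0 CPM, mostly COL1A1), and of 4 endothelial markers 2 were (9.71 to 13.3 against 5.54 to 6.35 CPM, nearly all VWF). The part of these markers in the results was not tested. With library size alone, 3094 genes were called higher and 5479 lower, against 4270 and 3921 with TMM scaling, and the median of all genes moved to -0.14.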

How the data were processed

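Polyadenylated RNA of 3 control and 3 palbociclib-treated LNCaP libraries was compared. The submitters' processing notes list cutadapt 1.9, HISAT2 2.0.4 (hg38) and StringTie 1.3.4d. The design text names fastp for trimming and gffcompare for merging the transcripts assembled in all samples. For each gene and library the authors deposited an estimated count, and also FPKM, in which fragments are divided by exon length and by mapped reads. The annotation release, strandedness and the separation of cultures are not given in the sources used here. Deposited counts were already whole numbers, so rounding changed none, and 0 columns of per-sample values lacked a sample. In each library the values 4, 8 and 12 stood out over adjacent counts, so that about 4 counts make a fragment. The floor of 12 counts, or 3 fragments, covers counting error only. Totals ran from 57082715 to 78117945 counts.

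Counts were filtered with edgeR's filterByExpr (minimum count 10, minimum total 15), which kept 21218 genes and removed 14212, scaled by TMM and tested with edgeR 4.0.16's quasi-likelihood F-test (R 4.3.3), Benjamini-Hochberg adjusted over all genes, threshold 0.05. SE was taken as |log2 fold change| / √F. Intervals of 95% use the moderated degrees of freedom. On simulated counts with 200 of 20531 genes changed by 2-fold, the fit recovered 99 of 111 changed genes at 5 CPM or more and 103 of the 200 in all, with 9 false calls. Alternatives were DESeq2 1.42.0, library size alone, RLE factors, no filter, limma 3.58.1 on log2(FPKM + 1) and log2(FPKM + 0.1), counts divided by 4, a replicate block, each library left out, and control library 3 as the only control. Shares and sums of FPKM were tested by exact permutation over libraries. Exon overlaps and spans are from GENCODE 44 on hg38; promoter windows are from RefSeq. The 9 genes and the lists were chosen with earlier results of these data known. Genes named are the 9, those sharing exons with them or lying beside CDKN2A, all genes of 3-gene lists, up to 4 per longer list by lowest adjusted p with others as values, and the 2 nearest profiles of each called gene. Some genes the rule names are not reported here.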

Additional observations from a re-analysis of the deposited data

How the results depend on the processing

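Directions of all 9 fold changes held in every alternative run. CCND1, CDK6, CDKN2A and CDKN2C were also called in all 15 alternatives. The 3 members called higher became 1 with limma on log2(FPKM + 1) and 1 on log2(FPKM + 0.1), where CCND3 was at 0.20 and 0.22, CDK4 at 0.078 and 0.079 and CCND2 at -0.19 and -1.01, none of them called; CDK4 was also lost with library size alone (0.076). The 6 called lower became 3 against control library 3 alone, where CCND2 was at -0.50, CDKN2B at -0.76 and CDKN2D at -0.60, not called, and all genes called lower went from 3921 to 2182; that fit has 1 control, assumed to vary like the treated libraries, and the cause was not tested. CDKN2B was not called without the filter on low counts (-0.71).

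Leaving out each library gave 3 to 5 members called lower and 3 called higher in each case. CCND2 then ran from -3.03 to -2.06, CDKN2B from -0.79 to -0.65 and CDKN2D from -0.86 to -0.50. CCND2 had no value with counts divided by 4, where it did not pass the filter. In the fit with the replicate number as a block, CDKN2B was at -0.70 and not called (adjusted p = 0.0613, range 0.00867 to 0.137), and the other 8 calls held. Same-numbered libraries did not deviate together (correlations -0.0341 to -0.00794, against -0.0170 to 0.0474 for libraries of different number). So few pairs cannot show whether same-numbered libraries share a batch or culture day. The CDKN2C share of INK4 FPKM, higher by 0.78 percentage points with palbociclib, turned to -0.094 without palbociclib library 3 and ran up to 1.84 without palbociclib library 1. Of 390 list counts under alternatives 355 were within 1.5 times of the value given. Depth limits CCND2, which had 3 to 34 fragments per library.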
